A study of Mus musculus with 6 samples.

Results

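The genes examined here are 10 regulators of the passage from G1 into S phase of the cell cycle, chosen by name: the D cyclin genes Ccnd1, Ccnd2 and Ccnd3, the CDK inhibitor genes Cdkn2a, Cdkn2b, Cdkn1a and Cdkn1b, the retinoblastoma gene Rb1, the p53 gene Trp53 and the gene of its ubiquitin ligase, Mdm2. All 10 were found among the 55385 mouse genes of the deposited table, and all 10 passed the filter on low counts that left 18504 genes for testing. Bulk RNA-seq had been made from PDVC57, an established mouse line of squamous carcinoma cells derived from skin keratinocytes, with 3 libraries labelled Sox2 KO and 3 labelled Sox2 overexpression. Sox2 is a transcription factor of stem cells. The study's design text calls the cells Sox2 low and Sox2 high, says that they were isolated from grafted tumours, and asks by which mechanisms Sox2 in these cells modulates neutrophils. The labels give no unmodified control, no host strain, no age and no promoter for the overexpression, and do not say whether a library is a separate tumour, so p-values measure the spread between these libraries only.

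D cyclins are made when growth signals reach a cell. They bind CDK4 or CDK6, and the kinase then phosphorylates the Rb protein, which releases E2F factors that switch on the genes of S phase. INK4 inhibitors (Cdkn2a, Cdkn2b) block CDK4 and CDK6 directly, Cip/Kip inhibitors (Cdkn1a, Cdkn1b) act mainly on cyclin and CDK2 complexes, and p53 induces Cdkn1a and Mdm2 under stress while Mdm2 marks p53 for destruction. In squamous carcinoma this circuit is often disabled through loss of p53 or of the INK4 locus or through gain of cyclin D1.

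The libraries held 31247976 to 38543221 counts over mouse genes. The targeted gene separated the groups as labelled, with Sox2 at 0.685 to 1.44 CPM in the KO libraries and 78.3 to 128 CPM in the overexpression libraries (CPM, counts scaled to library size, here by TMM). All 20 epithelial markers passed the filter on low counts. In the edgeR test 13 were higher with overexpression and 0 lower, beside 13.6% and 18.0% of all tested genes. At an unadjusted p under 0.05 the counts were 15 and 0. The summed level of the 20 was 5664 to 8763 CPM with KO and 12353 to 17318 CPM with overexpression. All 10 fibroblast markers were lower with overexpression, their sum lying between 53172.5 and 81041 CPM with KO and between 246 and 388 CPM with overexpression. White blood cell markers summed to 37.3 to 128 CPM with KO and 25.9 to 66.6 CPM with overexpression, endothelial markers to 25.0 to 96.5 and 11.8 to 19.0 CPM, and mural cell markers to 104 to 169 and 60.3 to 74.6 CPM. Of the tested markers of these 3 lists, 3 of 6, 3 of 4 and 4 of 5 were lower with overexpression, while 1 white blood cell marker (Cd14, log2 difference 1.29) and 1 mural cell marker (Notch3, 0.80) were higher, both named after their values were seen. No listed marker was at 0 counts in every library of a group. The summed levels did not overlap between the groups, except those of the white blood cell markers. The part of these markers in the differences below was not tested. In such bulk samples fewer cells of a type and less RNA per cell cannot be told apart.

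Of the 10 genes, 5 were higher with Sox2 overexpression and 0 lower (edgeR quasi-likelihood test, Benjamini-Hochberg adjusted p under 0.05 over all tested genes), while 31.6% of all tested genes passed in either direction, 13.6% as higher and 18.0% as lower. They were Ccnd1, Ccnd3, Cdkn2a, Cdkn2b and Rb1. DESeq2 called 5 higher and 0 lower, beside 16.0% and 18.7% of all genes it tested. At an unadjusted p under 0.05, 7 were higher and 0 lower. Shares of all tested genes at an unadjusted p were not computed, for these genes or for any list. The other 5, Ccnd2, Cdkn1a, Cdkn1b, Trp53 and Mdm2, did not pass. For 7 of the 10 genes every overexpression library lay above every KO library, which held for 24.4% of tested genes, and the median log2 fold change (overexpression over KO) was 0.56 against -0.016 over all tested genes. The number called higher was 4 in each fit that left out 1 library, other than that without overexpression replicate 2, in which it was 6, and 1446 to 2599 of all genes were higher in these fits. The values that follow are on the TMM scale unless another is named, and the calls of Ccnd1, Ccnd3, Cdkn2a and Rb1 were not kept when libraries were scaled to epithelial markers.

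**Figure D1:**
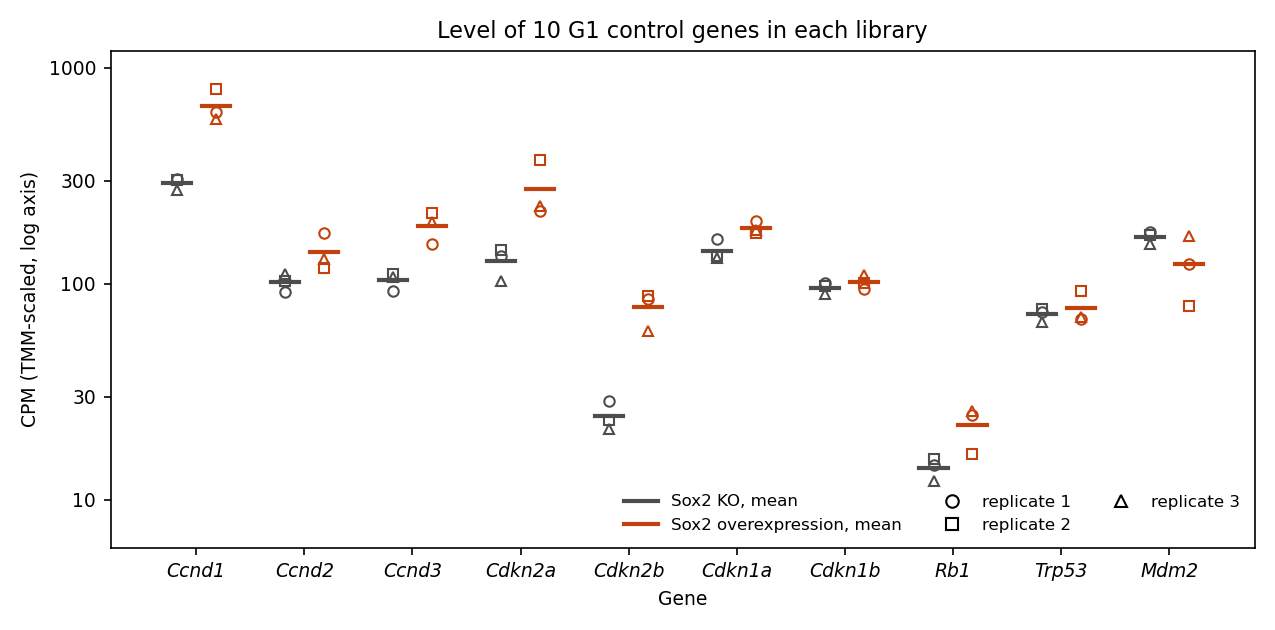
Level of each of the 10 genes in every library, in CPM on a log axis. Symbols are replicates, horizontal lines are group means (grey, Sox2 KO; orange, Sox2 overexpression), and the overexpression libraries lie above all KO libraries for 7 genes, with the widest gap for Cdkn2b (21.4 to 28.8 CPM against 60.8 to 87.8 CPM).

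Ccnd1 encodes cyclin D1, the D cyclin most often in excess in squamous carcinoma. It lies on chromosome 7 (144929931 to 144939925, minus strand, GRCm38), and its exons overlap those of LTO1 on the other strand. The KO libraries had 304, 302 and 272 CPM and the overexpression libraries 627, 795 and 582 CPM in replicates 1, 2 and 3. Every overexpression library lay well above every KO library, and overexpression replicate 2 was the highest. The mean rose from 293 ± 17.9 to 668 ± 112 CPM (SD, n = 3 each), or by 1.19 ± 0.17 (SE) on the log2 scale (adjusted p = 0.00104, edgeR). The call held in all 6 fits that left out 1 library, with adjusted p-values from 0.00163 to 0.00726.

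Ccnd3 (chromosome 17, 47505051 to 47599691, plus strand) encodes cyclin D3, and its exons overlap those of Bysl on the other strand. Its levels were 92.9, 112 and 107 CPM with KO and 153, 213 and 193 CPM with overexpression. The groups did not overlap. Ccnd3 rose by 0.84 ± 0.17 (SE) on the log2 scale (adjusted p = 0.00561, edgeR), and passed the threshold in all 6 fits that left out 1 library.

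Ccnd2 (chromosome 6, 127125162 to 127152193, minus strand) encodes cyclin D2, and its exons overlap 9330179D12Rik and Gm43126 on the other strand. It measured 91.9, 103 and 111 CPM with KO and 171, 119 and 130 CPM with overexpression. The overexpression libraries were again the higher ones, but replicate 1 stood above the other 2, which came close to the KO range. The log2 difference of 0.46 ± 0.18 (SE; 95% interval 0.056 to 0.86) missed the threshold (adjusted p = 0.0806, edgeR). Without overexpression replicate 2 it was 0.58 and did pass (adjusted p = 0.0318, in a range from 0.0318 to 0.21 over all alternatives).

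Shares of the D cyclins within a library do not depend on how libraries are scaled to each other. With counts divided by the length of all annotated exons, Ccnd1 made up 76.1%, 73.1% and 70.6% of the D cyclin signal in KO replicates 1, 2 and 3, and 78.9%, 82.0% and 77.6% in the overexpression replicates. Its share was higher in every overexpression library, by 6.25 percentage points between the group means of 73.3% and 79.5%. The share of Ccnd2 was lower in every overexpression library, at 8.54% ± 2.34 against 12.8% ± 1.52 (SD, n = 3 each). The level of these shares depends on the length used: with the longest coding transcript the KO share of Ccnd3 was 34.2% rather than 13.9%, while the Ccnd1 share remained higher in each overexpression library.

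Cdkn2a and Cdkn2b are neighbours on chromosome 4. Cdkn2a (89274471 to 89294653, minus strand) has 2 first exons and encodes 2 unrelated proteins, the CDK inhibitor p16Ink4a and the p53 activator p19Arf, which binds Mdm2. Counts per gene do not separate these transcripts. Cdkn2b (89306299 to 89311039, minus strand) encodes the CDK inhibitor p15Ink4b, known as a target of TGF-beta in keratinocytes. The stretches before the 3 start sites are printed because both genes moved in the same direction and because the start sites of Cdkn2a cannot be told apart in the counts. The sequences are from a RefSeq table (GRCm38.p6) in which 7 of the 10 genes were matched, with 10 starts in all, and Ccnd1, Ccnd2 and Rb1 were not. The 2 starts of Cdkn2a are 12427 bases apart, and that of Cdkn2b lies 16413 bases from the nearer one. Each stretch begins 250 bases before the start, runs 5′ to 3′ on the minus strand and ends where an annotated exon begins. Capitals mark matches to the motifs listed after them.
Cdkn2a, p19Arf start, chr4:89294654-89294869: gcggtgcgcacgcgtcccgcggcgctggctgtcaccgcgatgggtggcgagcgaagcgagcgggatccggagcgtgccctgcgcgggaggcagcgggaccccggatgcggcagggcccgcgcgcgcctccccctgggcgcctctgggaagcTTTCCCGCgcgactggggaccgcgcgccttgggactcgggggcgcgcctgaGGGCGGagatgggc
Cdkn2a, p16Ink4a start, chr4:89282193-89282442: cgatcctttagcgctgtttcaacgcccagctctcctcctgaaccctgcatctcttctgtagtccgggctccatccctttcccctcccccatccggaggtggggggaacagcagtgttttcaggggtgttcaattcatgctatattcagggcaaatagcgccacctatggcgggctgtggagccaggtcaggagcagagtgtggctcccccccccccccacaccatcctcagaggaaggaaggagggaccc
Cdkn2b start, chr4:89311040-89311282: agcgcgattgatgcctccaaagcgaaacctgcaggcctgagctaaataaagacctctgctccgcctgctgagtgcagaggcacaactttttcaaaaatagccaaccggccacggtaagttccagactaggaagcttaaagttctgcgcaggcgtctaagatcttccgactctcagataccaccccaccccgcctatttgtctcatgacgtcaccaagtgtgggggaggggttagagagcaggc

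Motifs were searched on both strands in the 250 bases before each start. The GC box, bound by Sp1 and related factors, was searched as GGGCGG. The E2F site, where E2F factors bind the genes of S phase, was searched in the forms TTTCCCGC and TTTGGCGC. The AP-1 site, bound by Fos and Jun proteins, was searched as TGANTCA, where N is any base. The E-box, to which Myc binds, was searched as CACGTG. The TATA box, which positions the polymerase at some promoters, was searched as TATAAA. The core bound by SOX factors was searched as CATTGT. The stretch before the p19Arf start held TTTCCCGC, 99 bases before the start, which 0.895% of 32851 such windows of all genes hold. It also held GGGCGG 48 bases before the start, found in 32.7% of windows, and a further match lay 14 bases before the start, outside the printed stretch. The windows of p16Ink4a and Cdkn2b held none of the 7 motifs. CATTGT was in none of the 10 windows and in 10.7% of all windows. Among the other genes, GGGCGG was present before Ccnd3, Cdkn1b, Mdm2 and the second start of Cdkn1a, and TATAAA, which 12.4% of windows hold, before Trp53. A match describes the letters only and is no evidence of binding.

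Cdkn2b had the largest rise of the 10 genes. Its levels were 28.8, 23.3 and 21.4 CPM with KO and 84.9, 87.8 and 60.8 CPM with overexpression. All overexpression libraries lay far above all KO libraries. The mean rose from 24.5 ± 3.86 to 77.8 ± 14.8 CPM (SD, n = 3 each), which is 3.17-fold (1.67 ± 0.20 (SE) on the log2 scale, adjusted p = 0.000291, edgeR). It passed the threshold under each of the 13 alternatives, with adjusted p-values from 2.4e-12 to 0.0208.

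Cdkn2a measured 135, 143 and 103 CPM with KO and 218, 374 and 228 CPM with overexpression. The groups did not overlap, and overexpression replicate 2 stood well above the other 2. Cdkn2a rose by 1.11 ± 0.24 (SE) on the log2 scale (adjusted p = 0.00826, edgeR) and passed in all 6 fits that left out 1 library, with values from 0.83 to 1.27. Per kilobase of exon Cdkn2a had the highest level of the 10 genes in both groups, 108 ± 18.3 CPM per kb with KO and 234 ± 74.6 CPM per kb with overexpression (SD, n = 3 each).

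Cdkn1a encodes p21, the inhibitor that p53 induces, and lies on chromosome 17 (29090976 to 29100727, plus strand), where its exons overlap AC167363.2 on the other strand. It measured 162, 134 and 132 CPM with KO and 196, 173 and 177 CPM with overexpression. The groups did not overlap, but the gap between the nearest libraries was small beside the spread within the groups. The log2 difference was 0.35 ± 0.15 (SE; 95% interval 0.011 to 0.69). It missed the threshold with all libraries (adjusted p = 0.108, edgeR) and whenever 1 library was left out.

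Cdkn1b encodes p27, an inhibitor abundant in resting cells, and lies on chromosome 6 (134920401 to 134925513, plus strand). Its levels of 101, 97.4 and 89.6 CPM with KO and 94.5, 100.5 and 109.8 CPM with overexpression overlapped. On the log2 scale the groups differed by 0.084, with a 95% interval from -0.23 to 0.39 (adjusted p = 0.672, edgeR).

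Rb1 encodes the protein that D cyclin kinases inactivate. It lies on chromosome 14 (73183673 to 73325822, minus strand), and its exons overlap those of Lpar6 and Rcbtb2 on the other strand. Its level was the lowest of the 10 genes, also per kilobase of exon, with 14.6, 15.4 and 12.2 CPM with KO and 24.8, 16.3 and 25.8 CPM with overexpression. Overexpression replicate 2 was barely above the highest KO library. Rb1 rose by 0.67 ± 0.21 (SE) on the log2 scale (adjusted p = 0.0442, edgeR). The call was kept without overexpression replicate 2 (adjusted p = 0.00711, edgeR). It was lost in the other 5 fits that left out 1 library (adjusted p from 0.0859 to 0.134) and with upper-quartile normalization (0.0689). Over all alternatives the adjusted p ranged from 0.00711 to 0.261.

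Trp53 (chromosome 11, 69580359 to 69591873, plus strand) encodes p53, which is regulated mostly at the level of the protein. It measured 73.9, 76.3 and 66.7 CPM with KO and 68.6, 92.7 and 70.0 CPM with overexpression. The ranges overlapped, and overexpression replicate 2 was the highest library. The log2 difference was 0.092, with a 95% interval from -0.28 to 0.46 (adjusted p = 0.695, edgeR), and its sign turned (-0.042) without overexpression replicate 2.

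Mdm2 (chromosome 10, 117688875 to 117710758, minus strand) had 174, 168 and 152 CPM with KO and 124, 78.7 and 166 CPM with overexpression. The KO libraries lay close together and the overexpression libraries were widely spread, replicate 3 being inside the KO range and replicate 2 far below it. The log2 difference of -0.42 (95% interval -0.99 to 0.15) missed the threshold (adjusted p = 0.231, edgeR). It was -0.16 without overexpression replicate 2 and -0.68 without replicate 3.

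Levels between genes were compared per kilobase of all annotated exons, and the order holds for these lengths only. Ccnd3 in particular has 8775 bases of annotated exon but 2113 in its longest coding transcript, a length that would raise its value. With KO the order was Cdkn2a, Ccnd1, Cdkn1a, Mdm2, Cdkn1b, Trp53, Cdkn2b, Ccnd3, Ccnd2 and Rb1, and the libraries of neighbours in this order overlapped for Trp53 and Cdkn2b and for Ccnd3 and Ccnd2. With overexpression the order was Cdkn2a, Ccnd1, Cdkn2b, Cdkn1a, Mdm2, Cdkn1b, Ccnd3, Trp53, Ccnd2 and Rb1. Here Cdkn2b overlapped Cdkn1a, and each neighbouring pair from Mdm2 to Ccnd2 overlapped. Cdkn2b had 17.6 ± 2.78 CPM per kb with KO and 56.0 ± 10.7 CPM per kb with overexpression (SD, n = 3 each), above Cdkn1a at 51.2 CPM per kb.

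Ratios between pairs of these genes within a library do not change with library scaling. Of 5 ratios compared, 3 had groups that did not overlap. Among single tested genes, 50.9% had groups that did not overlap in CPM, in either direction. No such share was computed for ratios. The log2 ratio of Ccnd2 to Ccnd1 was -1.73, -1.55 and -1.29 with KO and -1.87, -2.74 and -2.16 with overexpression, a difference of -0.73. That of Cdkn2b to Cdkn2a was -2.23, -2.62 and -2.27 with KO and -1.36, -2.09 and -1.91 with overexpression, a difference of 0.58, which was 0.37 without overexpression replicate 1. That of Cdkn1b to Cdkn1a was -0.69, -0.46 and -0.55 with KO and -1.05, -0.78 and -0.69 with overexpression. These groups all but touched, at -0.6873 in KO replicate 1 and -0.692 in overexpression replicate 3, and the difference of -0.27 was -0.17 without overexpression replicate 1. In these 3 cases a two-sided exact permutation test over libraries gave p = 0.1, the smallest value that 3 against 3 libraries allow, or 0.167 adjusted over the 5 ratios, so none could pass the threshold.

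The other 2 ratios overlapped between the groups. Ccnd3 to Ccnd1 differed by -0.35 on the log2 scale (exact permutation p = 0.2). Mdm2 to Trp53 was between 1.14 and 1.24 in the KO libraries, and 0.85, -0.24 and 1.25 in the overexpression libraries (exact permutation p = 0.4). Its difference of -0.57 came mostly from overexpression replicate 2 and was -0.14 without that library.

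**Figure D2:**
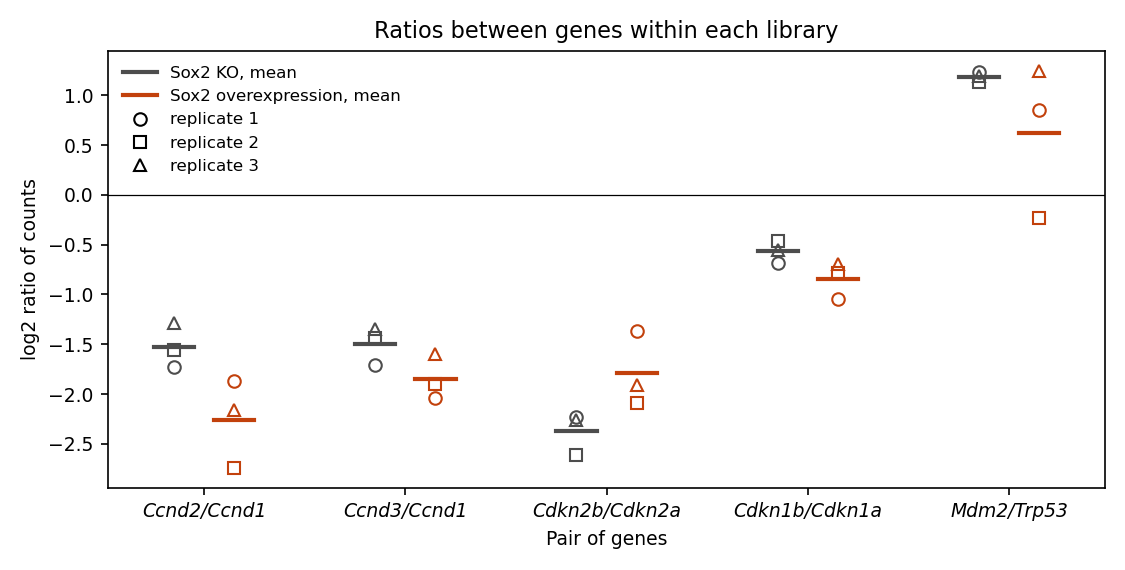
The log2 ratio of counts for 5 pairs of genes in each library (grey, Sox2 KO; orange, Sox2 overexpression; symbols, replicates; lines, group means). The groups do not overlap for Ccnd2/Ccnd1, Cdkn2b/Cdkn2a and, barely, Cdkn1b/Cdkn1a (-0.6873 against -0.692 at the nearest), and the Mdm2/Trp53 ratio of overexpression replicate 2 (-0.24) lies far below the other 5 libraries.

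Because epithelial markers were higher with overexpression, the fit was repeated with each library scaled to the median ratio of the 20 epithelial markers, so that a change is read relative to them. Over all tested genes, the median moved from -0.016 to -1.05 on the log2 scale, and 71.6% of genes were called. Of the 10 genes only Cdkn2b was then higher past the threshold (log2 fold change 0.64, adjusted p = 0.0208, edgeR), against a background of 2.11% of tested genes. Ccnd1 and Cdkn2a were at 0.14 (adjusted p = 0.504) and 0.056 (adjusted p = 0.814). Ccnd3, Ccnd2 and Rb1 had negative values, -0.23, -0.58 and -0.35, that did not pass.

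The 4 remaining genes were lower relative to the epithelial markers, against a background of 69.5% of tested genes lower. Their log2 fold changes were -0.67 for Cdkn1a (adjusted p = 0.0115), -0.96 for Cdkn1b (0.00132), -0.96 for Trp53 (0.00142) and -1.44 for Mdm2 (0.00157). The values of Cdkn1b and Trp53 lie near the shifted median of all genes.

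**Figure D3:**
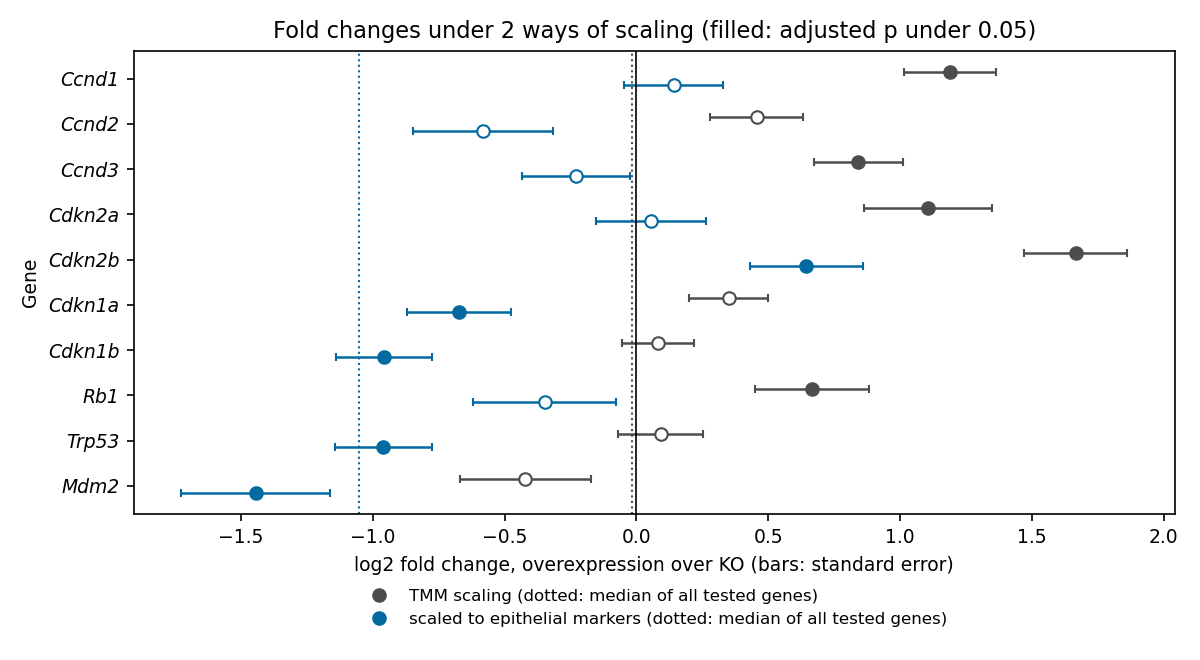
Log2 fold change of overexpression over KO for the 10 genes, with standard errors as bars, under TMM scaling (grey) and scaling to epithelial markers (blue). Filled points have an adjusted p under 0.05, dotted lines are the medians of all tested genes (-0.016 and -1.05), and Cdkn2b alone is filled above 0 under both.

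Other genes of the pathway were read from the same fit as 6 lists with 70 genes, of which 69 were tested and Gdf15 was not. Of the 69, 14 were higher and 6 lower with overexpression, beside 13.6% and 18.0% of all tested genes. The higher count fell to 9, 8 and 7 without KO replicate 1, 2 and 3. Of all tested genes, 2519 were higher with all libraries and 1774, 1446 and 1610 in these fits. The lower count fell to 2 in each of these fits and to 3 without overexpression replicate 3. Of all tested genes, 3329 were lower with all libraries and 3256, 2784, 2917 and 2854 in the same fits. Scaled to the epithelial markers, 1 of the 69 was higher and 51 were lower, beside 2.11% and 69.5% of all tested genes. On that scale Cks1b, Cdkn2c and Tfdp2, which are described next, had log2 values of -0.12, -0.090 and -0.46.

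Among 12 genes for CDK4, CDK6, E cyclins, CDK2 and their regulators, 1 was higher and 0 lower. Over all tested genes 13.6% were higher and 18.0% lower. The counts were the same at an unadjusted p under 0.05 and with DESeq2, which called 16.0% of all genes it tested higher and 18.7% lower. The list had a median log2 fold change of 0.059 against -0.016 over all tested genes. The one called was Cks1b, a small subunit that helps degrade p27. It measured 32.5, 29.8 and 33.0 CPM with KO and 45.1, 93.3 and 48.4 CPM with overexpression (log2 difference 0.97, adjusted p = 0.0255, edgeR), and lost the call without KO replicate 1, 2 or 3 (0.0577, 0.0859 and 0.0556), with log2 values of 0.93 to 1.002. Without overexpression replicate 2, its highest library, the value was 0.58 (adjusted p = 0.00933). The partners of the D cyclins, named after their values were seen, did not pass: Cdk4 was at 0.49 (adjusted p = 0.126) and Cdk6 at -0.21 (adjusted p = 0.426) on the log2 scale.

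Of the 3 CDK inhibitor genes outside the 10, 1 was higher and 1 lower, beside 13.6% and 18.0% of all tested genes. Cdkn2c, an INK4 gene, rose from 10.9 ± 0.383 to 21.4 ± 4.17 CPM (SD, n = 3 each), or by 0.97 on the log2 scale (adjusted p = 0.00463, edgeR), and passed in all 6 fits that left out 1 library. Cdkn1c, the imprinted Cip/Kip gene of p57, had 14.2, 53.6 and 50.5 CPM with KO and 5, 0 and 8 counts in the overexpression libraries (log2 fold change -8.25, adjusted p = 7.11e-05). It was high in the libraries that also held the fibroblast markers, whose part in this was not tested, and KO replicate 1 was the lowest of them. Its exons overlap Gm44732 on the other strand. Cdkn2d was at 0.43 and did not pass (adjusted p = 0.117).

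Of 12 Rb relatives and E2F factors, 1 was higher and 2 lower, beside 13.6% and 18.0% of all tested genes. The median was 0.080. Tfdp2, a partner of E2F, rose by 0.59 on the log2 scale (adjusted p = 0.0215, edgeR) and lost the call without KO replicate 2 or 3 or overexpression replicate 3 (0.0937, 0.0614 and 0.0790). E2f8, a repressor of E2F targets whose exons overlap Gm2788, was at -0.52 (adjusted p = 0.0393) and passed in 1 of the 6 fits that left out 1 library.

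Of 13 E2F target genes of S phase, with a median of 0.55, 5 were higher and 0 lower. Over all tested genes 13.6% were higher and 18.0% lower. The list also holds Cdk1 and Mki67, which are not confined to S phase. Cdk1, named after its values were seen, had the largest rise of the list (log2 difference 1.18). For the list the counts were 7 and 0 at an unadjusted p under 0.05. With DESeq2 they were 6 and 0, beside 16.0% and 18.7% of all genes it tested. The smallest p-value was that of Ccna2, cyclin A2, which rose from 15.1 ± 0.824 to 32.8 ± 2.20 CPM (SD, n = 3 each), or by 1.12 on the log2 scale (adjusted p = 0.000618, edgeR). Ccna2 exons also overlap Exosc9, on the opposite strand. The count of 5 was 2 without KO replicate 1, 2 or 3. Over all tested genes the higher count was 2519 with all libraries and 1774, 1446 and 1610 in these fits. Relative to the epithelial markers, 0 genes of the list were higher and 6 lower, beside 2.11% and 69.5% of all tested genes. On that scale Ccna2 was at 0.062 (adjusted p = 0.806, edgeR). Mki67, a proliferation marker named after its values were seen, was at -0.051 (adjusted p = 0.884).

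Of 12 relatives and regulators of p53, 3 were higher and 1 lower, beside 13.6% and 18.0% of all tested genes. The median was 0.0059. Scaled to the epithelial markers, 1 was higher and 9 were lower, beside 2.11% and 69.5% of all tested genes. Trp73, named after its values were seen, had the largest rise of the list under TMM (log2 difference 2.79, adjusted p = 0.0061, edgeR). Its mean levels were low, at 0.605 CPM with KO and 4.14 CPM with overexpression. Trp63, the p53 relative that marks basal keratinocytes, rose from 50.1 ± 14.2 to 142 ± 44.3 CPM (SD, n = 3 each), or by 1.504 on the log2 scale (adjusted p = 0.00387, edgeR), which was 0.502 relative to the epithelial markers (adjusted p = 0.103). Mdm4, the partner of Mdm2 in restraining p53, measured 99.0, 92.7 and 105 CPM with KO and 65.0, 34.0 and 66.1 CPM with overexpression. Its log2 fold change of -0.84 (adjusted p = 0.0295) lost the call without KO replicate 1, 2 or 3 (0.0651, 0.0671 and 0.0771).

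Of 17 tested p53 target genes, 3 were higher and 2 lower, beside 13.6% and 18.0% of all tested genes, with a median of 0.12. Plk2, a kinase gene, rose from 157 ± 11.2 to 343 ± 41.9 CPM (SD, n = 3 each), or by 1.12 on the log2 scale (adjusted p = 0.000756, edgeR), and was at 0.077 relative to the epithelial markers (adjusted p = 0.734). Fas, a death receptor gene, measured 12.9, 19.2 and 11.6 CPM with KO and 6.19, 2.33 and 2.25 CPM with overexpression (log2 difference -2.02, adjusted p = 0.00671). The lower count was 1 without KO replicate 1, 2 or 3 or overexpression replicate 3, beside 16.9%, 14.4%, 15.3% and 14.6% of all tested genes. The higher genes also included Perp, a desmosome gene of epithelia, and Phlda3, both named after their values were seen.

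**Figure D4:**
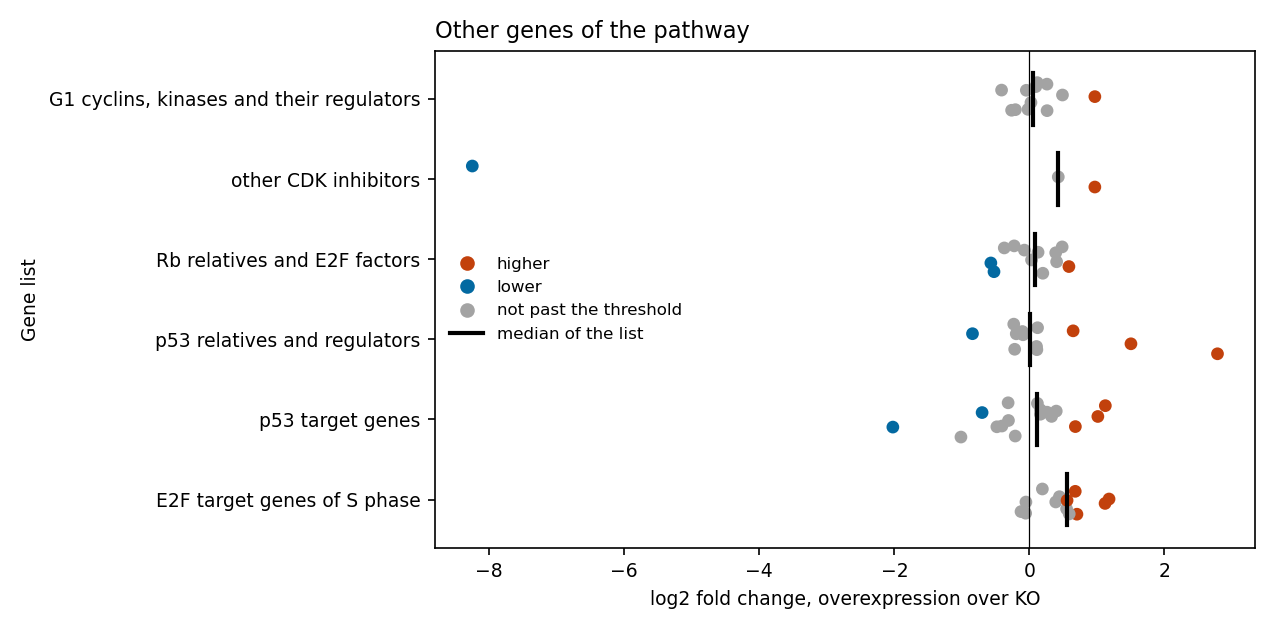
Log2 fold change of overexpression over KO for the tested genes of 6 pathway lists, 1 point per gene (orange, higher; blue, lower; grey, not past an adjusted p of 0.05), with the median of each list as a black line. The lists are centred near 0 except the E2F targets of S phase (median 0.55) and the 3 other CDK inhibitors (0.43), where Cdkn1c stands alone at -8.25.

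The genes whose pattern over the 6 libraries was most like that of Cdkn2b were sought among 8441 genes by the root mean square distance of their centred log2 CPM. They were Epn3 (distance 0.097), Dusp4 (0.11) and Them6 (0.11). Their log2 differences between the groups were 1.61, 1.67 and 1.81, which follow from their being chosen for likeness to a gene that rose. No gene of the 10 fell past the threshold, so no such search was made for a fall.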

How the data were processed

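RNA-seq counts per gene of 6 libraries were analysed. The deposited values are whole-number counts with no normalization, and kallisto 0.44.0 and mm10 (GRCm38) are named per the submitters' processing notes. The annotation, the strand setting and the step that gave whole numbers are not given in the sources used here. If the counts are kallisto estimates, reads shared by related or overlapping genes were divided between them. Per the labels' protocols, RNA came from a column kit for small samples and libraries were made with a low-input kit. A further 96 rows (spike-ins and constructs) made up no more than 2.23e-05% of any library and were left out. Symbols, positions and exon lengths are from GENCODE M21, which names 55144 of the 55385 gene IDs.

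Low counts were removed by filterByExpr (at least 10 counts, and 15 in total), libraries were scaled with TMM and tested in 1 fit of all 6 libraries with edgeR 4.0.16 in R 4.3.3 (estimateDisp, glmQLFit, glmQLFTest), with Benjamini-Hochberg adjustment over 18504 genes and a threshold of 0.05. The fit was tested on simulated data. Standard errors are the size of the log2 fold change divided by the square root of F, and 95% intervals use them. Ratios were compared by exact permutation (SciPy 1.17.1). Alternatives were RLE and upper-quartile scaling, scaling to epithelial markers, no count filter, a block for replicate number, a robust dispersion fit, DESeq2 1.42.0 and leaving out each library. Another exon length for the D cyclin shares was added after seeing the data. Named were the 10 genes, Sox2, the gene of smallest p past the threshold per pathway list and direction, and the 3 genes nearest in pattern to the member with the largest rise. The genes, lists and alternatives were chosen with earlier results of these data known. A count of 0 allows up to 3 counts, or 0.0759 to 0.101 CPM, counting error only. The smallest chi-square per degree of freedom between replicates was 37.7, so each library counted as 1 replicate. No batch is in the labels, so none was tested.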

Additional observations from a re-analysis of the deposited data

Results flagged for a closer look

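Among the rows that name no mouse gene, the mCherry construct had 8 counts in KO replicate 3, above the 3 counts that a count of 0 allows, and at most 1 count in any other library.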

How the results depend on the processing

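Scaling to epithelial markers moved the most: 13246 genes were called in all, 390 higher and 12856 lower, 1 of the 10 genes was higher and 4 lower, and 1 pathway gene was higher and 51 lower. It reversed the log2 fold changes of Trp53 (-0.96), Rb1 (-0.35), Cdkn1a (-0.67), Cdkn1b (-0.96), Ccnd2 (-0.58), Ccnd3 (-0.23), Cks1b (-0.12), Cdkn2c (-0.090) and Tfdp2 (-0.46), and the split of calls went from 43.1% higher and 56.9% lower to 2.94% and 97.1%. The shift follows from the construction, since the epithelial markers were higher with overexpression under TMM. When 1 library was left out, the value of Trp53 ranged from -0.042, without overexpression replicate 2, to 0.1916. In these fits the genes called higher ranged from 1446 to 2599, pathway genes called higher from 7 to 15 and lower from 2 to 7, and the cause was not tested. The 5 log2 ratios and the difference in Ccnd1 share kept their direction under every alternative run for them. For the ratios only leaving out a library could have turned it. Division by length does not change their difference, and 1 added count is little beside these counts. The labels do not say whether replicate numbers pair the libraries, and so few libraries cannot decide it. Same-numbered libraries had correlations of 0.051, 0.022 and -0.040 in their deviations from the group means. The first of these, for replicate 1, was the highest of all pairs across the groups. KO replicate 2 and KO replicate 3 each correlated best with another number. With the replicate block, 5593 genes were called, and 4 of the 10 genes, Rb1 being lost (adjusted p = 0.0633). Pathway genes called were 14 higher and 4 lower, the latter also the count without a filter on low counts. At this depth all 10 genes were far above the floor, so the spread between 3 libraries limits the tests.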

Other observations

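Some libraries lay outside the range of the other 5 more often than others. Overexpression replicate 2 did so for 52.3% of tested genes, for 6 of the 10 genes (lowest for Mdm2, highest for Trp53, Cdkn2a, Cdkn2b, Ccnd1 and Ccnd3) and for 46 of the 69 pathway genes. KO replicate 3 did so for 45.1% of tested genes, for 7 of the 10 genes and for 24 of the 69 pathway genes. It was the lowest library for Trp53, Rb1, Cdkn1a, Cdkn1b, Cdkn2a, Cdkn2b and Ccnd1. The other 4 libraries did so for 18.8% to 31.03% of tested genes.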
